A study of Mus musculus with 16 samples.

Results

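In all, 10 genes of the Notch pathway were followed in the seminal vesicle (SV) of 5-week-old mice: the receptors *Notch1*, *Notch2*, *Notch3* and *Notch4*, the ligands *Jag1*, *Jag2*, *Dll1* and *Dll4*, and the target genes *Hes1* and *Hey1*. They were chosen by name, as 10 of the 31274 genes of the expression table, and all 10 were present and passed the minimum level for testing. SVs of C57BL/6 males were sequenced in 4 groups of 4 samples each. WT-veh and WT-DES mice had intact *Esr1*, which encodes ERα (oestrogen receptor α), and were pups of purchased C57Bl/6 females, whereas αERKO-veh and αERKO-DES mice carried a global disruption of *Esr1* and came from a colony of heterozygous breeders, so that the genotypes were not littermates. Pups of the DES groups were injected under the skin with diethylstilbestrol, a synthetic oestrogen, at 2 µg per pup per day from day 1 to day 5 of life, and pups of the veh groups with the corn oil in which it was dissolved. All groups were sampled at the same age, week 5. RNA-seq was described as 4 samples per group, but the description of RNA extraction names 3 pools of mice for WT-DES and 4 individual mice for each other group, so what a WT-DES sample is could not be settled and p-values may partly measure technical spread.

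Notch receptors are single-pass membrane proteins that are activated by Jagged and Delta-like ligands on a neighbouring cell. Binding leads to cleavage of the receptor by ADAM proteases and then by γ-secretase, which frees the intracellular domain to enter the nucleus and form a complex with RBPJ and Mastermind proteins on target genes such as those of the *Hes* and *Hey* families. Fringe glycosyltransferases alter which ligands a receptor answers to. In glandular epithelia the pathway takes part in the choice between basal and luminal fates, and in vessels *Dll4* and *Notch4* are used by the endothelium and *Notch3* by mural cells.

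The question of each comparison was how the genes differed with loss of ERα (αERKO-veh against WT-veh), with DES in the presence of ERα (WT-DES against WT-veh) and with DES in its absence (αERKO-DES against αERKO-veh). Values are FPKM (fragments per exon length in kilobases, relative to all mapped fragments), and log2 changes are differences of mean log2(FPKM + 1), which understate the change of genes with low values. Tests were made with limma over 15988 genes with Benjamini-Hochberg adjustment. A gene was called higher or lower at an adjusted p of at most 0.05 where the mean FPKM of the groups also differed at least 1.5-fold. *Esr1* was between 2.81 and 4.55 FPKM in WT-veh, between 8.74 and 19.6 in WT-DES and between 0.91 and 1.75 in the 8 αERKO samples, each of which was therefore below all WT samples, as the labels require.

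The tissue itself differed widely between WT-DES and the other groups. The 7 secretory genes of the SV summed to 46170 to 54060 FPKM in WT-veh and to 2372 to 7708 in WT-DES, and all 7 were called lower. All 12 endothelial markers, 4 of 6 basal epithelial, 6 of 8 fibroblast, 11 of 12 leukocyte and 4 of 6 adipose markers were called higher in WT-DES, whereas 6 of 8 luminal epithelial, 5 of 10 smooth muscle and pericyte, 3 of 8 skeletal muscle and all 4 anterior prostate markers were called lower. The anterior prostate genes summed to 6844 to 7280 FPKM in WT-veh and 89.68 to 643 in WT-DES. The 12th leukocyte marker, *Cd52*, was called lower, at 2837 to 3022 FPKM in WT-veh and 282 to 568 in WT-DES. It made up most of the summed leukocyte markers in WT-veh, so that their sum (3109 to 3365 there and 1369 to 2158 in WT-DES) ran opposite to the other 11. In whole tissue, fewer cells of a type and less RNA per cell cannot be told apart. WT-DES sample 1 stood apart from the other WT-DES samples, with a smooth muscle sum of 3846 FPKM against 923.4 to 1419. The total of FPKM was 375206.7 to 437618.9 in WT-DES and 479044.6 to 652707.5 elsewhere. Scaling to equal totals without the 20 most abundant genes moved the median log2 change of all genes in WT-DES from −0.01 to 0.38, and the calls from 4613 higher and 3815 lower to 6945 and 1828. The same scaling moved the calls from 719 and 420 to 1452 and 119 in αERKO-veh against WT-veh, from 3797 and 4740 to 2031 and 6580 in αERKO-DES against WT-DES, and from 4729 and 4296 to 7276 and 1960 for the interaction.

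In WT mice DES raised 3 of 4 receptors and 3 of 4 ligands, and neither target gene. *Notch1*, *Notch2*, *Notch3*, *Jag1*, *Dll1* and *Dll4* were called higher and 0 of the 10 genes lower, against 28.9% of all tested genes called higher and 23.9% called lower. In these 6 genes every WT-DES sample lay above every WT-veh sample. Such a separation was seen upwards in 32.7% and downwards in 34% of all tested genes. The median log2 change was 0.71 over the 10 genes and −0.01 over all tested genes. In αERKO mice DES moved 0 of the 10 genes past the threshold (limma, 2 with an unadjusted p under 0.05), against 0.0876% of all genes called higher and 1.41% called lower.

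**Figure D1:**
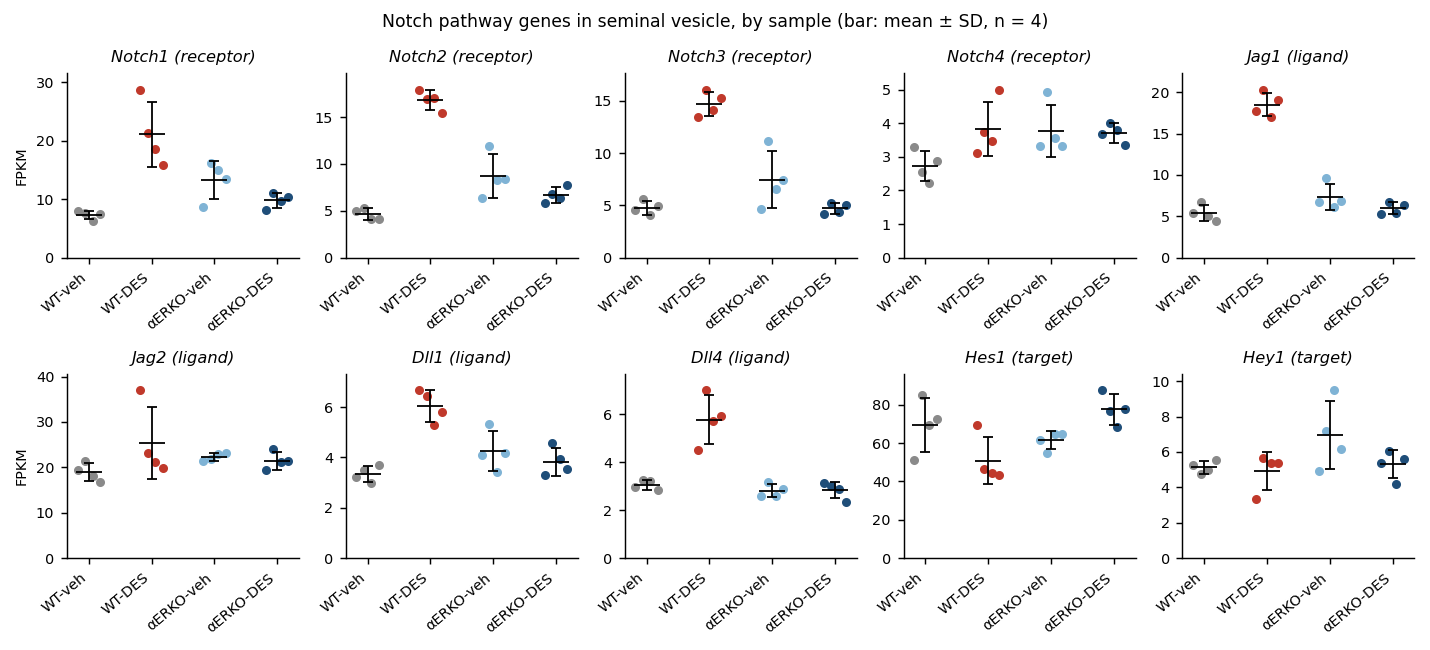
FPKM of each gene (vertical axes, linear, from 0) in the 4 samples of each group (points), with the mean and SD of the group (bars). The 4 WT-DES points lie above all WT-veh points for *Notch1*, *Notch2*, *Notch3*, *Jag1*, *Dll1* and *Dll4*, while *Notch4*, *Jag2*, *Hes1* and *Hey1* overlap.

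The start regions of the 4 genes that rose most with DES in WT, *Notch1*, *Notch2*, *Notch3* and *Jag1*, are shown beside that of *Notch4*, the receptor that was not called, so that genes that moved together can be read side by side. Each sequence is RefSeq on GRCm38.p6, from 250 bases before to 50 bases after the start site, 5′ to 3′ on the strand of the gene. Capitals mark GC boxes (GGGCGG, either strand), the motif of Sp1 family factors.
Notch1, chr2:26503773-26504072, minus strand: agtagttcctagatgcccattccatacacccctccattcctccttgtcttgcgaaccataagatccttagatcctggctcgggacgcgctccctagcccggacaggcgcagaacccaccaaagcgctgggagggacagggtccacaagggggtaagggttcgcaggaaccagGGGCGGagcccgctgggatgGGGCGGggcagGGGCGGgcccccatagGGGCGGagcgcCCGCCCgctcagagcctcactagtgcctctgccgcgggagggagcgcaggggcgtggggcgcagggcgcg
Notch2, chr3:98013288-98013587, plus strand: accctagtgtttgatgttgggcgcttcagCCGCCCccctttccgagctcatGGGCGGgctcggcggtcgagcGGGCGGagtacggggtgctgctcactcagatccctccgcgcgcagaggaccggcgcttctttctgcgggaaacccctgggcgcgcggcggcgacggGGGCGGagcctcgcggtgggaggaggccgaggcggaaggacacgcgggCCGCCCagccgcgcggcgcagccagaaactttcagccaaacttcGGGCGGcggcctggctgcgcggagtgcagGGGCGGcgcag
Notch3, chr17:32166841-32167140, minus strand: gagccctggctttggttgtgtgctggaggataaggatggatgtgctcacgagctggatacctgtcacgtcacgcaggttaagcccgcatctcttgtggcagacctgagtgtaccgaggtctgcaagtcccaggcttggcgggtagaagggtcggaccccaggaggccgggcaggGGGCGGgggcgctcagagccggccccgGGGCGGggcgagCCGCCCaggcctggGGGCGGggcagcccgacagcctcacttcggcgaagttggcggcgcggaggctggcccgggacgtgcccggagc
Jag1, chr2:137116471-137116770, minus strand: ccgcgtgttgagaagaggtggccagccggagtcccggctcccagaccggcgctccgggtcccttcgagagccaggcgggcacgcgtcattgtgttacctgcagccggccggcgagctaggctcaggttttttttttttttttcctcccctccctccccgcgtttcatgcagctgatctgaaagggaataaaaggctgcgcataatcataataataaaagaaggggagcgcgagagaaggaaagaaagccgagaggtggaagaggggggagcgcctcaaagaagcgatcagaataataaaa
Notch4, chr17:34564045-34564344, plus strand: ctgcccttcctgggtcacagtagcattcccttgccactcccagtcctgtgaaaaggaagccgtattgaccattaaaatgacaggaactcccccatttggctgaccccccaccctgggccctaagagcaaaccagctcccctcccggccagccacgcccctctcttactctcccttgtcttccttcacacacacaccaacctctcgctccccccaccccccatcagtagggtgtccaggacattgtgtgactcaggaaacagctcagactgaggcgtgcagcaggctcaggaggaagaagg
Of the 10 genes, 8 had an entry among 32851 promoters, all but *Hes1* and *Hey1*. *Dll1* had 2 entries, so that the 8 genes had 9. Shares of all promoters are per promoter, whereas counts of the 8 are per gene. A GC box was found in 35.7% of all promoters and in those of 5 of the 8 genes, with 5 sites in *Notch1*, 7 in *Notch2*, 4 in *Notch3*, 5 in *Jag2* and 2 in *Dll4*. The GC content was 68.3% in *Notch1*, 73.0% in *Notch2*, 70.0% in *Notch3*, 55.7% in *Jag1* and 58.3% in *Notch4*, against a median of 52.7% of all promoters. The core motif of RBPJ (TGGGAA, either strand) was in 25.6% of all promoters and in 0 of the 8 genes, and the oestrogen response half-site (GGTCA, either strand) in 40.5% and in 3 of the 8 genes. The full oestrogen response element, GGTCA and TGACC with 3 bases between them, which contains the half-site, was in 0.07% of all promoters and in 0 of the 8. The TATA box (TATAAA) was in 13.6% of all promoters and in 0 of the 8. *Notch4* held 3 half-sites and the 4 genes shown beside it 0, while *Dll1* and *Dll4*, which were also called higher, held 2 and 1. Both sites of *Dll1* were in 1 of its 2 start regions, and the other held 0. *Notch4* and *Jag1* both had no GC box. These matches describe letters in a window of 300 bases.

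*Notch1* (chr2:26457903-26516663, minus strand, GRCm38), the receptor best known in epithelial and blood cells, measured 8.01, 7.55, 6.33 and 7.46 FPKM in the WT-veh samples and 28.6, 21.2, 18.6 and 15.8 in WT-DES. The αERKO-veh samples measured 8.73, 16.2, 14.9 and 13.4, and the αERKO-DES samples 8.13, 11.1, 9.67 and 10.4. WT-DES sample 1 was the highest of all 16, and αERKO-veh sample 1 lay near the WT-veh samples while the other 3 were well above them. With DES in WT the mean rose from 7.34 ± 0.714 to 21.1 ± 5.51 FPKM (SD, n = 4 each), a log2 change of 1.38 (SE 0.18, adjusted p = 6.72e-06), which was 1.22 without WT-DES sample 1.

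*Notch2* (chr3:98013527-98150361, plus strand) measured 4.97, 5.34, 4.17 and 4.14 FPKM in WT-veh and 17.9, 16.9, 17.0 and 15.4 in WT-DES. The αERKO-veh samples measured 6.32, 11.9, 8.30 and 8.37, and the αERKO-DES samples 5.78, 6.74, 6.39 and 7.80. All WT-DES samples were above all other samples, and the 4 WT-DES values lay close together. Its log2 change of 1.66 (SE 0.14, adjusted p = 7.88e-08) was the largest of the 10 genes in WT, with means of 4.66 ± 0.597 and 16.8 ± 1.04 FPKM (SD, n = 4 each).

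*Notch3* (chr17:32120820-32166852, minus strand), the receptor of vascular smooth muscle and pericytes, measured 4.55, 5.59, 4.04 and 4.92 FPKM in WT-veh and 13.4, 16.02, 14.1 and 15.3 in WT-DES. The αERKO-veh samples measured 4.70, 11.2, 6.56 and 7.42, and the αERKO-DES samples 4.22, 5.26, 4.34 and 5.06. αERKO-veh sample 2 was the only sample outside WT-DES above 10 FPKM. The log2 change in WT was 1.45 (SE 0.17, adjusted p = 2.24e-06). Of the 10 smooth muscle and pericyte markers, 5 were called lower and 2 higher in WT-DES (median log2 change −0.79). The 2 higher, *Rgs5* and *Pdgfrb*, both of pericytes, had means of 18.5 and 53.7 FPKM for *Rgs5* and 12.1 and 36.2 for *Pdgfrb*, and *Cspg4*, also of pericytes, was under the fold required, with means of 9.27 and 12.8. The list summed to between 3105 and 3860 in WT-veh and between 923.4 and 3846 in WT-DES, and none of its markers was at 0. Their part in the rise of *Notch3* was not tested.

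*Notch4* (chr17:34564268-34588503, plus strand), a receptor largely of endothelium, had the lowest mean of the 10 genes in WT-veh, overlapping *Dll4* and *Dll1*, at 3.29, 2.55, 2.22 and 2.87 FPKM. The WT-DES samples measured 3.13, 3.75, 3.46 and 4.99, the αERKO-veh samples 3.31, 4.93, 3.56 and 3.31, and the αERKO-DES samples 3.68, 4.02, 3.81 and 3.34. WT-DES overlapped WT-veh at its lowest sample. The log2 change in WT was 0.37 (95% interval 0.08 to 0.65, adjusted p = 0.0216) with a ratio of 1.40, under the fold required, and it took the other sign, −0.10, under quantile normalization. With the scaling without abundant genes it was 0.70 and called, where the median of all genes was 0.38, and it was also called with the GC correction (0.49, adjusted p = 0.0039) and without WT-veh sample 1 (0.44, adjusted p = 0.0129). The 12 endothelial markers, among them *Pecam1*, at 23.9 and 62.6 FPKM, had a median log2 change of 1.18, summed to 170.3 to 212.5 FPKM in WT-veh and 297.9 to 486.1 in WT-DES, and none was at 0. As a share of the summed FPKM of the 4 receptors, *Notch4* held 14% ± 1.63 in WT-veh, and with DES in WT it held 6.91% ± 1.99 (SD, n = 4 each), with 12.1% as the lowest WT-veh and 9.70% as the highest WT-DES sample. The shares of *Notch1* were 37.6% and 36.9% in the same groups, those of *Notch2* 23.9% and 29.9%, and those of *Notch3* 24.5% and 26.3%.

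**Figure D2:**
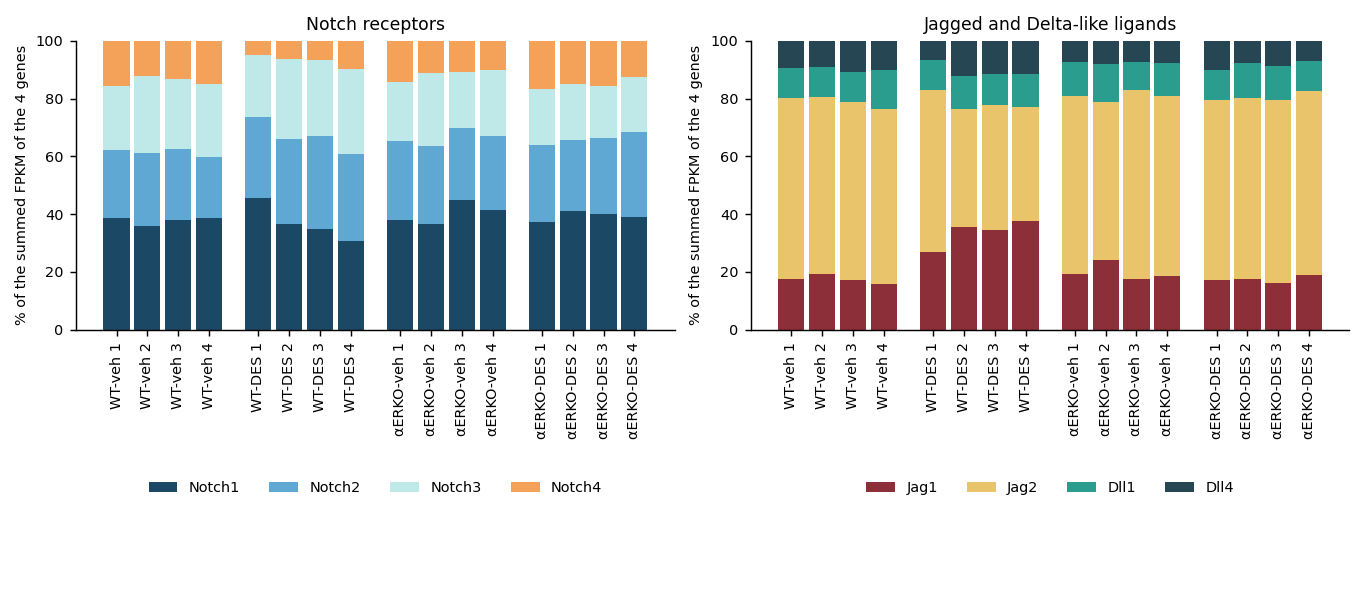
Percent of the summed FPKM of the 4 receptors (left) and of the 4 ligands (right) held by each gene (colours) in each of the 16 samples (stacked bars, 0 to 100). *Notch4* holds under 10% of the receptor sum in the 4 WT-DES samples and over 10% in the other 12, and *Jag1* holds 27.0% to 37.6% of the ligand sum in WT-DES and at most 24.0% elsewhere.

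Among the ligands, *Jag1* (chr2:137081456-137116644, minus strand) measured 5.45, 6.76, 5.03 and 4.38 FPKM in WT-veh and 17.8, 20.3, 17.0 and 19.0 in WT-DES. The αERKO-veh samples measured 6.75, 9.61, 6.16 and 6.90, and the αERKO-DES samples 5.31, 6.79, 5.37 and 6.37. No WT-DES value came near those of another group. The mean rose from 5.41 ± 1.01 to 18.5 ± 1.44 FPKM (SD, n = 4 each), a log2 change of 1.62 (SE 0.13, adjusted p = 5.14e-08).

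*Jag2* (chr12:112907819-112929776, minus strand), the other Jagged ligand, was the most abundant of the 4 ligands in all groups, at 19.5, 21.4, 18.1 and 16.7 FPKM in WT-veh and 37.0, 23.2, 21.2 and 19.9 in WT-DES. The αERKO-veh samples lay between 21.3 and 23.1, and the αERKO-DES samples between 19.4 and 24.1. WT-DES sample 1 was far above every other sample, sample 2 was just above the highest WT-veh sample, and samples 3 and 4 lay within the WT-veh range. Its log2 change in WT, 0.36 (95% interval 0.05 to 0.67, adjusted p = 0.0347, ratio 1.34), did not pass the fold required and was 0.17 without sample 1, and it was 0.78 and called with the scaling without abundant genes. The 6 basal epithelial markers, which include *Trp63* and *Krt5*, summed to 549.1 FPKM in that sample, the highest of all 16, and to 260.9 to 441.6 in the other WT-DES samples and 174.2 to 250.3 in WT-veh. Of the 6 markers *Krt5*, *Krt15* and *Trp63* were highest of WT-DES in sample 1, *Krt14* and *Dsg3* in sample 4 and *Col17a1* in sample 2. *Dsg3* was at 0 in 3 of 4 WT-veh samples and was the only basal marker at 0 in any sample. The part of basal cells in the *Jag2* values was not tested. The ratio of *Jag2* to *Jag1* within a sample was 1.38 ± 0.475 in WT-DES against 3.54 ± 0.269 in WT-veh, and with αERKO it was 3.62 ± 0.243 after DES and 3.13 ± 0.614 after vehicle (SD, n = 4 each), with 2.08 as the highest WT-DES and 2.28 as the lowest value elsewhere.

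*Dll1* (chr17:15367354-15376872, minus strand) and *Dll4* (chr2:119325784-119335962, plus strand) are Delta-like ligands, *Dll4* being a ligand of sprouting and arterial endothelium. *Dll1* measured 3.22, 3.52, 2.98 and 3.68 FPKM in WT-veh and 6.67, 6.45, 5.30 and 5.79 in WT-DES, and 3.30 to 5.32 in the αERKO samples. *Dll4* measured 2.96, 3.24, 3.21 and 2.82 in WT-veh and 4.49, 6.99, 5.70 and 5.91 in WT-DES, and 2.34 to 3.16 in the αERKO samples. Neither WT-DES group overlapped WT-veh, and one αERKO-veh sample of *Dll1*, at 5.32, was just above the lowest WT-DES value. The log2 change in WT was 0.70 for *Dll1* (SE 0.11, adjusted p = 6.36e-05) and 0.73 for *Dll4* (SE 0.11, adjusted p = 2.47e-05). Under quantile normalization both fell below the fold required, at 0.32 and 0.35. The lowest *Dll4* value in WT-DES was in sample 1, which also had the lowest endothelial sum of that group, and the part of endothelium in the rise of *Dll4* was not tested.

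**Figure D3:**
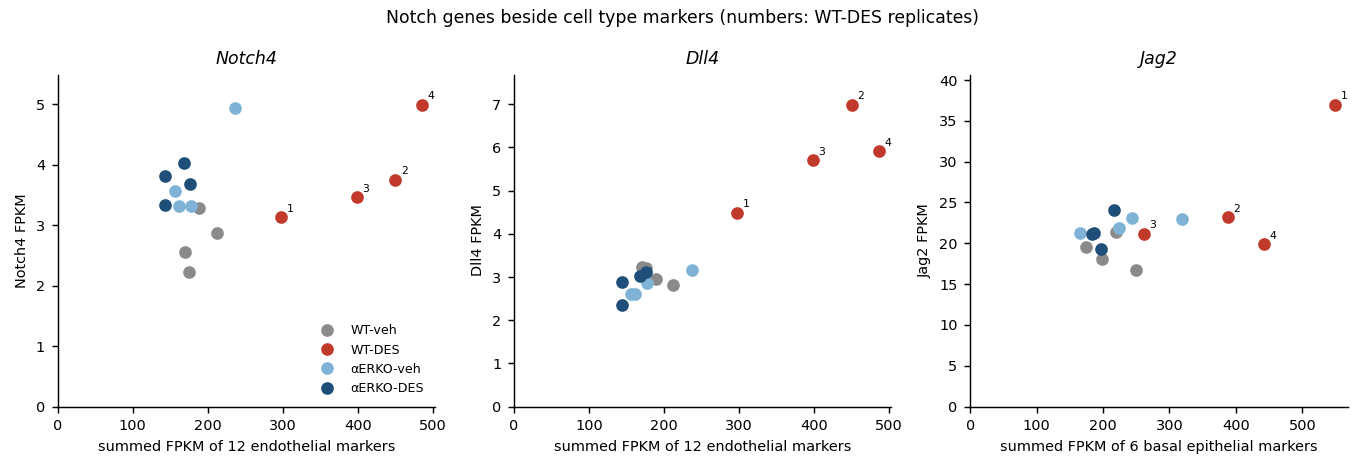
FPKM of *Notch4*, *Dll4* and *Jag2* (vertical axes) against the summed FPKM of endothelial (left, middle) or basal epithelial markers (right) in the same sample, with the groups in colour and the WT-DES replicates numbered. The WT-DES endothelial sums of 297.9 to 486.1 lie to the right of all other samples, and WT-DES sample 1 has the highest *Jag2* value and the highest basal sum.

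Neither target gene was called with DES in WT. *Hes1* (chr16:30064384-30067796, plus strand), a transcriptional repressor and the most abundant of the 10 genes in every group, measured 51.1, 85.3, 69.6 and 72.6 FPKM in WT-veh and 69.4, 46.4, 44.3 and 43.6 in WT-DES. The αERKO-veh samples measured 61.8, 55.0, 64.9 and 64.7, and the αERKO-DES samples 87.6, 76.9, 68.2 and 77.6, so that every αERKO-DES sample was above every αERKO-veh sample, as in 6.4% of all tested genes, with 6.57% separated downwards. The log2 change in WT was −0.45 (95% interval −0.78 to −0.12, adjusted p = 0.0171, ratio 0.731), under the fold required. Without WT-DES sample 1, the one high value of that group, *Hes1* was called lower (−0.61, adjusted p = 0.000829), and under quantile normalization the change was 0.01. *Hey1* (chr3:8663359-8667256, minus strand), a related repressor, measured 5.25, 4.73, 5.00 and 5.56 FPKM in WT-veh and 3.33, 5.67, 5.36 and 5.37 in WT-DES, and 4.17 to 9.49 in the αERKO samples. Its log2 change in WT was −0.07 (95% interval −0.42 to 0.29, adjusted p = 0.725), and the sign turned under 4 settings, among them 0.08 without WT-DES sample 1.

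The order of the levels, in FPKM, which are scaled per length of transcript and so can be set side by side between genes, also differed between the groups. In WT-veh it ran from *Hes1* and *Jag2*, each apart from the next gene, through *Notch1*, *Jag1*, *Hey1*, *Notch3* and *Notch2*, which overlapped their neighbours, and after a gap to *Dll1*, *Dll4* and *Notch4*. In WT-DES *Hes1* was still apart at the top, and *Jag2*, *Notch1*, *Jag1*, *Notch2* and *Notch3* followed with means between 25.3 and 14.7 FPKM, each overlapping the next. *Dll1*, *Dll4*, *Hey1* and *Notch4* came below a gap, with means between 6.05 and 3.83 FPKM, and overlapped their neighbours.

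Without DES, 3 of 4 receptors were higher in αERKO than in WT mice. *Notch1*, *Notch2* and *Notch3* were called higher in αERKO-veh than in WT-veh and 0 of the 10 genes were called lower, against 4.5% of all genes called higher and 2.63% called lower. The means were 13.3 against 7.34 FPKM for *Notch1* (log2 change 0.75, SE 0.18, adjusted p = 0.0114), 8.73 against 4.66 for *Notch2* (0.76, SE 0.14, adjusted p = 0.00545) and 7.46 against 4.78 for *Notch3* (0.50, SE 0.17, adjusted p = 0.0409). All αERKO-veh samples were above all WT-veh samples for *Notch1*, *Notch2* and *Notch4*, a separation seen upwards in 12.6% of all tested genes and downwards in 17.1%, and *Notch3* overlapped. *Jag1* (0.38, adjusted p = 0.0441) and *Notch4* (0.35, adjusted p = 0.0638) were under the fold required. The log2 changes of this comparison rose with transcript length over 15036 genes (Spearman's rho 0.552, a description over genes of the same libraries), and the receptors have long transcripts, of 9488, 10500 and 8016 bases for *Notch1*, *Notch2* and *Notch3* against a median of 3239. With a correction for that trend, 0 of the 10 genes were called, at 0.42 for *Notch1*, 0.40 for *Notch2* and 0.21 for *Notch3*, and the calls over all genes were 312 higher and 139 lower, or 3% of 15036, against 719 and 420, or 7.12% of 15988, without it. These counts also moved with single samples, to 254 and 164 without αERKO-veh sample 2, 428 and 287 without WT-veh sample 3, 504 and 268 without WT-veh sample 4 and 1031 and 660 without αERKO-veh sample 1. The call of *Notch3* was also lost without αERKO-veh sample 2 (0.31), without any one of 6 other samples, with no minimum on FPKM (adjusted p = 0.0628), with only the groups compared (adjusted p = 0.109) and under quantile normalization (adjusted p = 0.0664). Of the marker lists, 3 of 8 skeletal muscle genes (median log2 change 2.55) and 2 of 12 endothelial genes, *Kdr* and *Tek*, were called higher in αERKO-veh, and 1 of 8 fibroblast and 1 of 12 leukocyte genes lower. The skeletal muscle sum was 750 FPKM in αERKO-veh sample 1, which had the lowest receptor levels of its group, 1470 to 2244 in the other 3 and 736.4 to 1948 in WT-veh, where *Myh4* was at 0 in 1 sample. The endothelial sum was 236.9 in αERKO-veh sample 2, the sample with the highest receptor levels, 156.3 to 177.7 in the other 3 and 170.3 to 212.5 in WT-veh, with no marker at 0. The part of these tissues in the receptor values was not tested.

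Within αERKO mice, no receptor, ligand or target was called with DES. The log2 change was −0.38 for *Notch1* (95% interval −0.76 to 0.01), −0.32 for *Notch2* (−0.62 to −0.02), −0.52 for *Notch3* (−0.88 to −0.15) and −0.25 for *Jag1* (−0.53 to 0.03), with adjusted p from 0.0934 to 0.237, none of them called, and 0.33 for *Hes1* (−0.01 to 0.66, adjusted p = 0.205). The log2 changes of this comparison ran against transcript length over 15036 genes (Spearman's rho −0.32, a description over genes), and with a correction for that trend *Notch1* was at −0.22 and *Notch3* at −0.38. The upper ends of the intervals exclude rises of the size seen in WT for *Notch1*, *Notch2*, *Notch3* and *Jag1*. Without αERKO-veh sample 1, whose *Notch1*, *Notch2* and *Notch3* levels were the lowest of its group, *Notch1* (−0.55) and *Notch3* (−0.69) were called lower. *Notch3* was also called lower with sample weights (−0.50, adjusted p = 0.00249, where 115 genes of all were called higher and 1004 lower) and with the replicate number as a block (−0.52, adjusted p = 0.0488), although the numbers were not taken as pairs. The counts over all genes rested on single samples. They were 14 higher and 225 lower with all samples and 72 and 581 without αERKO-veh sample 1, but 2 and 1 without αERKO-veh sample 2, 1 and 0 without αERKO-veh sample 4, 1 and 1 without any one of αERKO-DES samples 1, 2 and 3, and 1 and 2 without WT-veh sample 3, which enters through the shared spread. They were 6 and 70 without WT-veh sample 1, 27 and 531 without WT-DES sample 1 and 10 and 136 without WT-DES sample 4. Under quantile normalization they were 3 and 2, and with only the groups compared 1 and 5. Markers of other tissues differed between these groups too. Of the skeletal muscle markers 5 of 8 were called lower in αERKO-DES, with sums of 750 to 2244 FPKM in αERKO-veh against 594.9 to 857.1. *Acta1* held most of the αERKO-DES sums, with means of 535.8 in αERKO-veh and 550.6 in αERKO-DES. The means of *Tnnc2* were 285.3 and 145.4, those of *Mylpf* 220.1 and 3.375 and those of *Myh4* 25.77 and 0.0375. Of the adipose markers 4 of 6 were called lower (median log2 change −2.88), with sums of 64.62 to 693.5 against 15.63 to 42.27, which did not overlap, and no marker of either list was at 0 in these samples. Of the fibroblast markers 2 of 8 and of the endothelial markers 1 of 12 were also called lower. Their part was not tested.

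**Figure D4:**
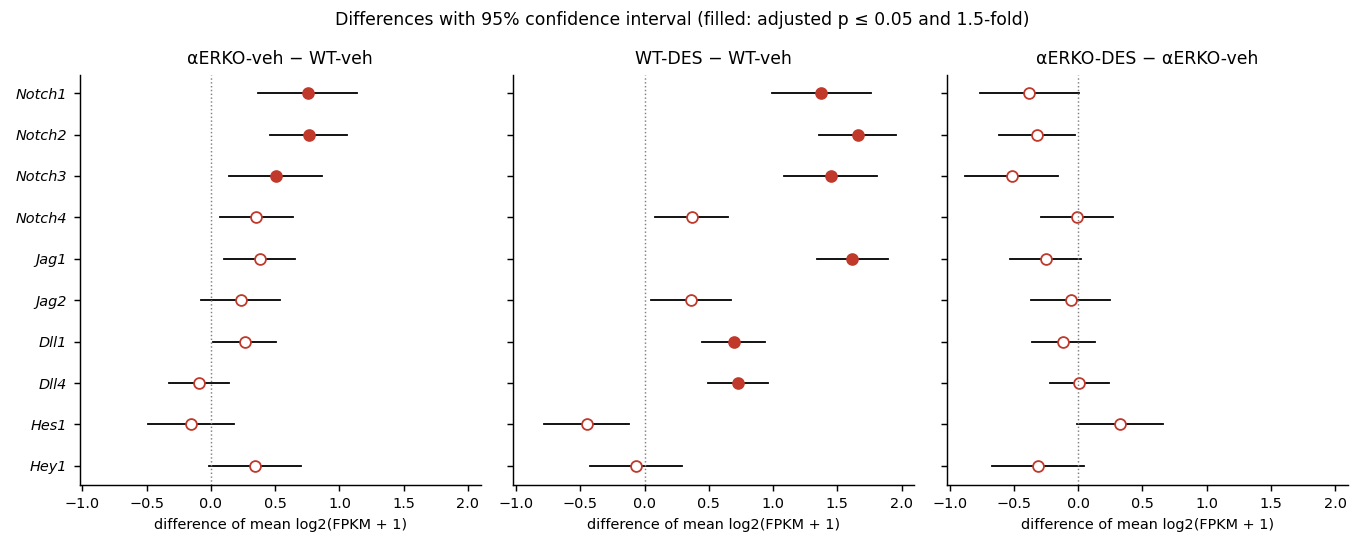
Difference of mean log2(FPKM + 1) (horizontal axes) for the 10 genes in 3 comparisons, with 95% intervals from the limma model (lines) and filled points for genes called. The WT-DES panel holds 6 filled points between 0.70 and 1.66, the αERKO-veh panel 3 between 0.50 and 0.76, and the αERKO-DES panel none.

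The difference between genotypes was tested directly. The interaction, meaning the DES log2 change of WT less that of αERKO, was called above 0 for the same 6 genes and below 0 for *Hes1*, against 29.6% of all genes called above and 26.9% called below. It was 1.98 for *Notch2* (SE 0.20, adjusted p = 7.48e-07), 1.96 for *Notch3* (SE 0.24, adjusted p = 4.97e-06), 1.87 for *Jag1* (SE 0.18, adjusted p = 6.8e-07) and 1.75 for *Notch1* (SE 0.25, adjusted p = 2.44e-05). It was smaller for *Dll1* (0.81, adjusted p = 0.000413) and *Dll4* (0.72, adjusted p = 0.000732), and both calls were lost under quantile normalization, at 0.28 and 0.15. *Hes1* was at −0.77 (SE 0.22, adjusted p = 0.00565), a call that was lost under quantile normalization (−0.16), the scaling without abundant genes (−0.22) and the length correction (−0.35). For *Notch4* (0.38, 95% interval −0.03 to 0.78), *Jag2* (0.42, −0.02 to 0.86) and *Hey1* (0.25, −0.26 to 0.75) the interaction was not called, which does not show equal changes. With the scaling without abundant genes all 3 were called above 0 (0.82, 0.96 and 0.72), and *Jag2* was also called under quantile normalization (0.60, adjusted p = 0.0208) and with the GC correction (0.60, adjusted p = 0.0202). The sign turned under quantile normalization for *Notch4* (−0.245) and *Hey1* (−0.27), and with the length correction for *Notch4* (−0.0814). Since the 4 groups enter it, the interaction shares its samples with the other comparisons.

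Between the DES groups, the same 6 genes were called lower in αERKO-DES than in WT-DES, with log2 differences from −0.55 for *Dll1* to −1.49 for *Jag1*, against 29.6% of all genes called lower and 23.7% called higher. In all 6 no αERKO-DES sample reached a WT-DES sample, a separation seen downwards in 32.7% and upwards in 33.8% of all tested genes. The calls of *Dll1* (−0.09) and *Dll4* (−0.31) were lost under quantile normalization. That normalization called *Notch4* (0.52) and *Hey1* (0.55) higher in αERKO-DES, and the scaling without abundant genes called *Jag2* lower (−0.56). *Hes1* was called higher (0.62, adjusted p = 0.00218), but without any one of WT-DES samples 2, 3 and 4 or αERKO-DES sample 1 it slipped under the fold required, at 0.56 to 0.58 (adjusted p from 0.00741 to 0.00868), and the call was lost under quantile normalization (0.17), with the scaling without abundant genes (0.24) and with the length correction (0.44). Between αERKO-DES and WT-veh, 0 of the 10 genes were called (limma, 2 with an unadjusted p under 0.05), against 1.21% of all genes called higher and 1.97% called lower. All αERKO-DES samples were above all WT-veh samples for *Notch1*, *Notch2* and *Notch4*, as in 9.93% of all tested genes, with 11.1% separated downwards. In that comparison the calls over all genes were 193 higher and 315 lower, 213 and 194 with the scaling without abundant genes, and 240 and 157 under quantile normalization. These counts moved with single samples, to 369 higher and 514 lower without αERKO-DES sample 1, 94 and 105 without αERKO-DES sample 3, 101 and 105 without αERKO-DES sample 4, 171 and 169 without WT-veh sample 1, 114 and 145 without WT-veh sample 3 and 102 and 115 without WT-veh sample 4. Without WT-DES sample 1, which enters through the shared spread, 495 genes were called lower.

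A list of 45 other genes of the pathway placed these values among their partners. Of them 41 were tested, and 16 were called higher and 5 lower in WT-DES than in WT-veh, beside the shares of all genes given above. The median log2 change was 0.29 over the 41. *Dlk1* and *Aph1c*, 2 of the 16, passed the minimum level through WT-DES alone, the group in which they were high, so their calls are given as descriptions. *Dll3*, *Hes2*, *Hes3* and *Hes5* were below the minimum level. In αERKO mice 0 of the 41 were called with DES, and in αERKO-veh against WT-veh 2 were called higher, *Dner* (log2 change 0.71) and *Spen* (0.62), the latter named after its values were seen. That is 2 of 41 beside the 4.5% of all genes called higher in that comparison.

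Of the nuclear complex, *Maml2*, a coactivator of the Mastermind family, measured 2.41, 2.64, 2.04 and 1.94 FPKM in WT-veh and 9.57, 9.84, 9.13 and 8.37 in WT-DES (log2 change 1.65, adjusted p = 8.64e-09). *Rbpj*, the DNA-binding partner of the receptors, lay between 5.93 and 7.32 in WT-veh and between 11 and 12.8 in WT-DES (0.76, adjusted p = 4.58e-07). *Maml1* changed by 0.36 and was not called, but was called higher with the scaling without abundant genes (0.76). Neither called gene overlapped between the groups, a separation seen upwards in 32.7% and downwards in 34% of all tested genes. The call of *Rbpj* was lost with the length correction (0.51). In all, 2 of the 5 genes of the complex were called higher and 0 lower, beside 28.9% and 23.9% of all genes.

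Of 6 glycosylation and processing genes 3 were called higher and 1 lower, beside 28.9% and 23.9% of all genes. The Fringe genes did not move as one: *Mfng* (log2 change 1.65) and *Lfng* (1.33) rose, from means of 4.93 to 17.9 and 8.38 to 22.8 FPKM, and *Rfng* fell by 0.81 from 38.8 to 21.7, a call lost with the scaling without abundant genes (−0.39). Of 9 membrane protease genes 3 were called higher and 2 lower, near the shares of all genes (28.9% and 23.9%). The 2 lower ones encode parts of γ-secretase, *Psen2* (−1.03, from 47.8 to 22.9 FPKM) and *Psenen* (−1.17, from 22.3 to 9.38), and *Aph1b* (0.70, from 2.26 to 4.32) and *Aph1c* (0.88, from 0.563 to 1.87), which belong to the same complex, were among the 3 called higher. The other of the 3 was *Adam17*, an ADAM protease, with means of 13.05 and 23.78 FPKM. *Aph1b* and *Adam17* were named after their values were seen.

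*Dlk1*, a non-canonical ligand of the Delta-like family that is high in fetal tissue, measured 0.16, 0.17, 0.19 and 0.25 FPKM in WT-veh and 6.03, 8.92, 7.60 and 6.63 in WT-DES (log2 change 2.79). It stayed between 0.00 and 0.29 in the 8 αERKO samples, so that WT-DES alone was above 1 FPKM. Its relative *Dlk2* fell (−1.02, from a mean of 11.8 to 6.32), a call lost with the scaling without abundant genes (−0.65). WT-DES sample 1, at 14.02 FPKM, was above every WT-veh sample (11.42 to 12.59), the other 3 were between 3.15 and 4.12, and the change was −1.44 without sample 1. *Dner* changed by −0.10 and was not called. The ubiquitin ligases *Neurl1a* (1.29) and *Neurl1b* (0.52), which promote ligand uptake, rose, although the call of *Neurl1b* was lost with the length correction (0.20) and under quantile normalization (0.04). *Mib2* changed by 0.16 and was not called, but was called higher with the scaling without abundant genes (0.57). Among 9 inhibitors and turnover genes, *Dtx4* (1.19), *Numbl* (1.01) and *Dtx3* (0.69) were the 3 called, all higher. Of all tested genes 28.9% were called higher and 23.9% lower.

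Of 5 further genes tested, *Nrarp* and others of the *Hes* and *Hey* families, 2 were called higher and 1 lower, also beside 28.9% and 23.9% of all genes. *Nrarp*, a target that feeds back on the receptors, measured between 6.35 and 7.73 FPKM in WT-veh and 56.4, 14.1, 12.3 and 19.6 in WT-DES (log2 change 1.5, adjusted p = 0.00071, and 1.04 without WT-DES sample 1). *Hey2*, a target used in arteries and heart, measured 0.52, 1.09, 1.02 and 0.94 in WT-veh and 1.46, 3.21, 4.26 and 3.71 in WT-DES (1.09, adjusted p = 0.000131). *Hes7* fell (−0.91) from a mean of 1.63 to 0.395 FPKM. Sample 1 was the highest of WT-DES for *Nrarp* and the lowest for *Hey2*.

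**Figure D5:**
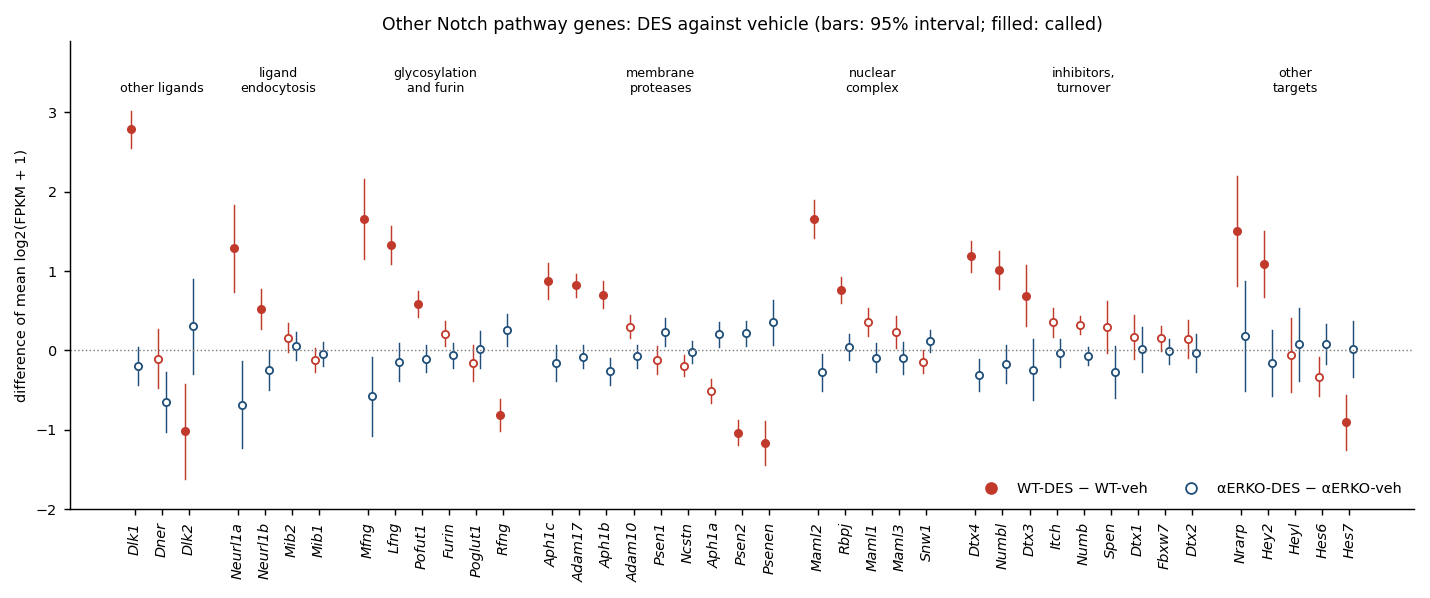
Difference of mean log2(FPKM + 1) (vertical axis) with its 95% interval for the 41 other pathway genes tested, ordered by role, with DES in WT (red) and in αERKO (blue), and filled points for genes called. In WT 16 points are filled above 0 and 5 below, from −1.17 (*Psenen*) to 2.79 (*Dlk1*), and in αERKO none is filled, from −0.68 (*Neurl1a*) to 0.35 (*Psenen*).

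The genes whose variation within groups was most like that of each Notch gene were taken by Pearson's r of deviations from the group means over the 16 samples, which share libraries, and are given with no test. *Notch1* was nearest to *Klf5* (r = 0.971), *Plxna1* and *Enpp1*, and *Klf5* measured 39.5 FPKM in WT-DES sample 1 and 17.1 to 25.1 in the other 3. *Jag2* was nearest to *Vti1a* (0.951), *Trp63* (0.947) and *Klhl21*, *Trp63* being the master regulator of basal epithelium. *Vti1a*, *Trp63* and *Klhl21* measured 15.7, 33.3 and 27.5 FPKM in WT-DES sample 1. In the other 3 they measured 11.6 to 12.7, 19.1 to 21.7 and 13.9 to 17.1, so that sample 1 stood apart in each, as it did in *Jag2*. Their means in WT-DES were lower than in WT-veh for *Vti1a* and *Klhl21* and higher for *Trp63*. *Notch4* was nearest to *Pecam1* (0.906), an endothelial adhesion molecule, *Epas1* and *Ivd*. *Notch2* was nearest to *Pcdhgc3* (0.943), *Slc4a7* and *Clasp1*, and *Notch3* to *Sh3pxd2a* (0.944), *Abcc9* and *Jam2*. The first neighbours of the remaining genes were *Dip2a* for *Jag1* (0.887), *Cytl1* for *Dll1* (0.81), *Llgl1* for *Dll4* (0.853), *Ier5* for *Hes1* and *Sel1l3* for *Hey1* (0.96). *Sel1l3* measured 8.55 FPKM in WT-DES sample 1, where *Hey1* was also lowest, and 13.8 to 16.4 in the other 3. Among the 10 genes themselves, *Notch2* and *Notch3* deviated together most (r = 0.848), and *Notch4* and *Hes1* most in opposite directions (−0.608).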

How the data were processed

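RNA-seq of 16 SV samples in 4 groups was used. Per the labels and the methods, the authors filtered paired-end reads by quality, aligned them to mm10 (TopHat2 2.0.4) and used Cufflinks 2.0.2 for the FPKM of each gene. The deposited FPKM table holds 31274 genes with 2 decimals. The gene annotation and any scaling between libraries are not given in the sources used here. FPKM hold no counts, and the depth of a sample was not recovered from them, so precision rests on the spread of 4 samples. Columns of other samples were 0.

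The 15988 genes whose mean FPKM exceeded 1 in any group were fitted as log2(FPKM + 1) with limma 3.58.1 in R 4.3.3, as group means, with trended eBayes and p-values adjusted by Benjamini-Hochberg over all of them. The fit was tested on simulated data with 200 changed genes. The 10 genes, the 45 others of the pathway and the marker lists were chosen with earlier results of these data known. Of the 45, up to 3 per role with the largest log2 change in WT-DES are named, and for each of the 10 genes the 3 most alike (mean FPKM of at least 5). *Spen*, *Aph1b* and *Adam17* were named outside this rule. Transcript lengths and positions are from GENCODE M21 (GRCm38), promoters from RefSeq (GRCm38.p6), and of 81 markers 2 listed genes were found under an older symbol. Alternatives were 14 other settings and leaving out each of the 16 samples. Figures and tables were made with Python 3.11.15, pandas 2.3.3 and matplotlib 3.10.9.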

Additional observations from a re-analysis of the deposited data

Results flagged for a closer look

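Of 40 sets of 4 samples (10 genes in 4 groups), 3 held a single sample far from the others by Dixon's test, where chance gives about 1 in 20. They were *Notch4* in αERKO-veh sample 2 (4.93 FPKM), *Hes1* in WT-DES sample 1 (69.4 FPKM) and *Hey1* in WT-DES sample 1 (3.33 FPKM).

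The change with DES differed between WT and αERKO by the test of the interaction for 7 of the 10 genes, 6 above 0 and 1 below, against 29.6% of all genes called above and 26.9% called below. The difference was 1.75 for *Notch1*, 1.98 for *Notch2*, 1.96 for *Notch3*, 1.87 for *Jag1*, 0.81 for *Dll1*, 0.72 for *Dll4* and −0.77 for *Hes1*, on the log2 scale.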

How the results depend on the processing

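The 6 calls of WT-DES against WT-veh and the 6 of the interaction above 0 were made in each of the 16 fits that left out a sample. Quantile normalization kept 4 of the first 6, without *Dll1* and *Dll4*. In αERKO-veh against WT-veh, 3 genes were called as reported, with 7.12% of all genes called. The count was 5 with the scaling without abundant genes (*Notch4* and *Jag1* added, 9.71% of all genes), 4 with the GC correction (*Notch4* added, 6.09%), 4 without a fold threshold (*Jag1* added, 26%), 2 with no minimum on FPKM (5.21%), with only the groups compared (7.36%) and under quantile normalization (5.45%), 1 at an adjusted p of at most 0.01 (2.51%) and 0 with the length correction (3%). In αERKO-DES against αERKO-veh the count was 0 as reported (1.49% of all genes), 1 with sample weights (7%), 1 with the replicate block (1.55%, *Notch3* in both) and 0 to 2 when a sample was left out (2 without αERKO-veh sample 1, 4.08%). For αERKO-DES against WT-veh the count was 0 as reported (3.18% of all genes) and 1 after the GC correction (*Notch4*, 3.27%). The cause was not tested. The r of deviations of same-numbered samples ran from −0.215 to 0.277, and was 0.277, 0.0961, 0.132 and −0.0222 between αERKO-veh and αERKO-DES. Samples with different numbers were not compared, so these r do not settle whether the numbers are pairs. They were not taken as pairs, and the block changed no other count of calls by over 1.5 times.

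Signs turned as follows. *Hey1* in WT-DES against WT-veh was at 0.0611 with sample weights, 0.30 with the scaling without abundant genes, 0.079 with the length correction, and −0.13 (without WT-DES sample 2) to 0.0774 (without sample 1) when a sample was left out. Under quantile normalization *Notch4* was at −0.10 and *Hes1* at 0.0125 in that comparison, and the interactions of *Notch4* and *Hey1* were at −0.245 and −0.27. The interaction of *Notch4* was at −0.0814 with the length correction. *Dner* in WT-DES was at 0.28 with the scaling without abundant genes and ranged from −0.239 to 0.000308 when a sample was left out.

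FPKM hold no depth, so low values such as those of *Dlk1* and *Hes7* carry a counting error that could not be given. Values are relative to the rest of a library whose makeup differed between groups, and the scaling decides small changes, such as those of *Notch4*, *Jag2*, *Hes1* and *Hey1*. Genotypes came from separate sources of animals and cannot be told apart from them.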

Other observations

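The receptors and *Hes1* stood in different proportions in the groups. The 4 receptors summed to 56.4 ± 5.21 FPKM in WT-DES and 19.5 ± 1.97 in WT-veh, and to 24.9 ± 2.44 after DES and 33.3 ± 8.65 after vehicle in αERKO (SD, n = 4 each). The ratio of *Hes1* to that sum ran from 0.801 to 1.1 over the WT-DES samples and from 2.46 to 4.15 over WT-veh, and for αERKO it was between 2.82 and 4.01 after DES and between 1.24 and 2.68 after vehicle, so that the WT-DES samples had the 4 lowest ratios of all 16. These ratios were computed after the values of the genes had been seen and were not tested.

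*Hes5*, a target that was below the minimum level for testing, measured 0.26, 0.77, 0.51 and 0.70 FPKM in WT-veh and 0.00, 0.07, 0.37 and 0.07 in WT-DES, and 0.00 to 0.21 in the 8 αERKO samples.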
